A study of Mus musculus with 19 samples.

Results

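The collagen genes of mouse tongue epithelium were followed in bulk RNA sequencing of 19 mice. They were taken as every gene symbol made of Col, a number, the letter a and a number, with Col17a1 left out, which gave 40 of the 24689 symbols in the table. The study asked how a constitutively active YAP, a transcriptional coactivator, and the oncoproteins E6 and E7 of HPV16 act on oral epithelium, alone and together. It compared 5 control mice (N), 5 mice with E6 and E7 (E), 3 mice with active YAP (Y) and 6 mice with both (EY), all sampled 15 days after induction. Every group was made of adult littermates of both sexes that received tamoxifen into the tongue and doxycycline in the diet, and the tissue was the epithelium, loosened with collagenase and dispase and then dissected away from the muscle. By the labels, E, Y and EY mice carried Krt14-CreERT, which places the recombinase in basal keratinocytes, together with LSL-rtTA, the doxycycline-dependent activator that Cre switches on. E mice added tetON_E6-E7, Y mice tetON_YAP1S127A, and EY mice both. By the methods, every group also carried a doxycycline-driven H2B-GFP reporter, and the YAP transgene sits at the Col1a1 locus. N mice 1, 2 and 3 carried Krt14-CreERT and LSL-rtTA alone. N mouse 4 carried LSL-rtTA without a Cre, and N mouse 5 carried Krt14-CreERT with both transgenes and no rtTA.

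Collagens are extracellular proteins whose chains wind around one another into a helix. Fibrillar types I and III, made mainly by fibroblasts, give the connective tissue beneath an epithelium its strength, while type IV forms the sheet of the basement membrane and type VII the anchoring fibrils that tie that sheet to the stroma. Keratinocytes make several of these chains themselves, so a collagen transcript in an epithelial sample need not come from stroma.

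Collagen RNA was a small part of what was sequenced, and the N mice alone spanned most of its range. The collagens held 0.0244% to 0.191% of the reads of a mouse. Summed over all 40 genes, their level was 298, 152, 63.2, 35.6 and 37.8 TPM in N mice 1 to 5, 102, 92.7, 73.1, 48.5 and 118 in E mice 1 to 5, and 48.1, 39.0 and 33.4 in Y mice 1 to 3. In the 6 EY mice it was 32.2 at the lowest, 84.6 at the median and 168 at the highest. N mice 1 and 2 were high, N mice 4 and 5, the N mice of different genotype, were the lowest of their group, and all 3 Y mice lay below all 5 E mice by a margin that median-of-ratios scaling closed (48.7 in Y mouse 1, 47.7 in E mouse 4), while every other pair of groups overlapped. In bulk, fewer cells of a type and less RNA per cell cannot be told apart. The samples were mostly epithelium: Krt13, a keratin of the differentiated layers, averaged 48941 TPM and Krt14, the basal keratin, 11385 TPM. The collagens themselves were far lower, and 27 of the 40 reached 0.1 TPM in at least 3 mice and were tested. The other 13 (Col23a1, Col8a2, Col4a4, Col4a3, Col6a6, Col26a1, Col11a1, Col24a1, Col28a1, Col6a4, Col13a1, Col25a1 and Col22a1) had 6 to 381 reads each over all 19 mice and at most 0.107 TPM in any mouse. Col9a1, Col9a2 and Col19a1 were not analysed here.

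Markers of fibroblasts, blood vessels, muscle and immune cells were present in every group. All 8 fibroblast markers were detected, with the proteoglycan gene Dcn the most abundant at a mean of 32.9 TPM. Their sum was 104, 137, 64.8, 69.6 and 62.2 TPM in N mice 1 to 5, 61.6, 42.0, 43.9, 61.8 and 55.6 in E mice 1 to 5, 15.01, 38.4 and 34.3 in Y mice 1 to 3, and 20.0, 32.8 and 97.7 at the lowest, median and highest in EY. Every N mouse and every E mouse was above every Y mouse in that sum, and the EY mice overlapped with all groups. Dcn carried that separation: the other 7 markers summed to 8.61 to 56.3 TPM among N mice, 8.53 to 28.9 among E mice and 8.37 to 12.6 among Y mice, which overlapped. The 6 endothelial markers, led by the adhesion gene Pecam1 at a mean of 0.211 TPM, were scarce, and their sum ranged over 0.106 to 1.13 TPM among N mice, 0.182 to 0.970 among E mice, 0.357 to 0.428 among Y mice and 0.399 to 3.94 among EY mice. The 8 skeletal muscle markers, led by the actin gene Acta1 at a mean of 88.4 TPM, ranged in sum over 11.7 to 239.7 TPM (N), 11.5 to 132.1 (E), 7.29 to 142.7 (Y) and 35.3 to 1286 (EY), so the level of muscle RNA varied among the samples. The 5 immune markers, led by the lysozyme gene Lyz2 at a mean of 138.4 TPM, ranged in sum over 87.9 to 697 TPM (N), 32.0 to 498.8 (E), 46.8 to 67.4 (Y) and 125.2 to 273.5 (EY), and all Y mice lay below all N mice. Without Lyz2 the immune sum was 28.2 to 45.7 TPM in Y mice and 23.0 to 140.4 in N mice, which overlapped. No marker of these lists was at 0 in every mouse. The Y samples were thus lower than N in Dcn and Lyz2, with the other markers of these lists overlapping in sum with N. This was not particular to Y. Dcn had a median of 9.74 TPM in EY, 24.2 in Y and 51.9 in N, and the lowest immune sum was in E mouse 4. The part of the markers in the collagen results was not tested.

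**Figure D1:**
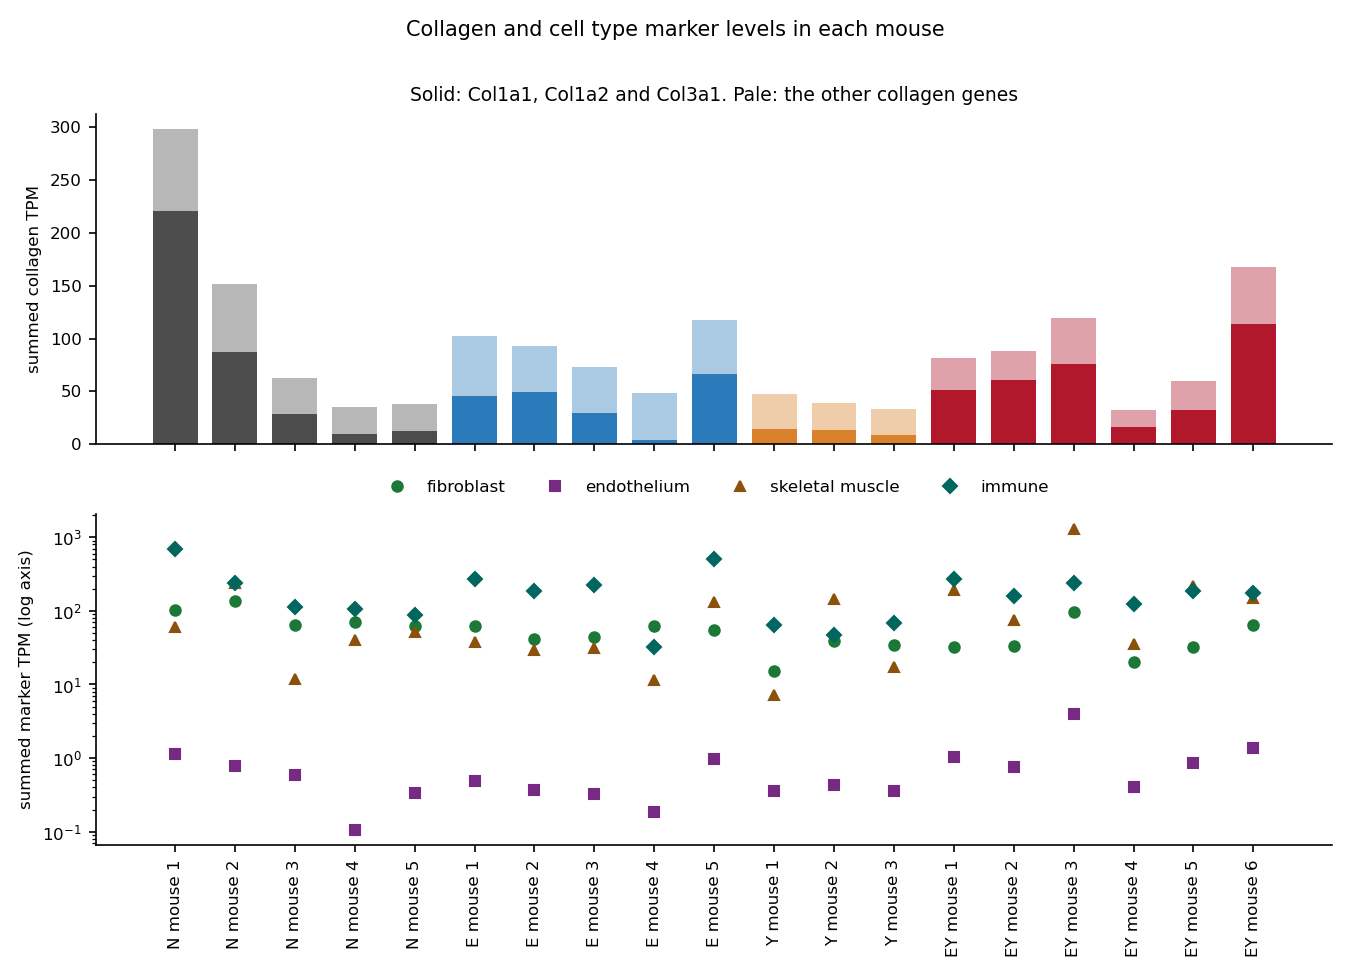
Summed TPM of the 40 collagen genes in each of the 19 mice (bars, solid for Col1a1, Col1a2 and Col3a1 and pale for the others) above the summed TPM of fibroblast, endothelial, skeletal muscle and immune markers in the same mice (points, log axis), in groups N, E, Y and EY. Collagen sums vary widely among the N mice and are low in the Y mice.

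The fibrillar collagens that build the bulk of connective tissue were the most abundant stromal members and did not pass the test in any comparison. Type III collagen is encoded by Col3a1, and the chains of type I by Col1a1 and Col1a2. Col3a1 stood at 100.1, 38.7, 11.3, 4.99 and 5.86 TPM in N mice 1 to 5, 20.8, 20.0, 12.7, 1.86 and 29.2 in E mice 1 to 5, 7.03, 7.12 and 3.11 in Y mice 1 to 3, and 6.04, 25.7 and 52.6 at the lowest, median and highest in EY. N mouse 1 was the highest of all mice and E mouse 4 the lowest, the Y and EY mice lay inside the range of N and E, and 5 of 6 EY mice were above all Y mice. Col1a1, for the main chain of type I, stood at 79.7, 32.1, 12.0, 2.78 and 4.95 TPM in N, 17.0, 19.7, 10.5, 1.03 and 26.7 in E, 4.97, 4.38 and 4.19 in Y, and 6.64, 19.8 and 40.3 at the lowest, median and highest in EY. Col1a2, for its partner chain, stood at 40.9, 16.9, 5.66, 2.37 and 2.20 TPM in N, 7.58, 9.58, 6.66, 0.801 and 10.8 in E, 2.59, 2.44 and 1.69 in Y, and 3.41, 9.94 and 21.3 in EY. For both type I genes the same N mouse was highest and the same E mouse lowest, and all EY mice were above all Y mice. Here and below, the share of all genes whose groups part without overlap is not reported, so such partings are a description only.

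With such scatter among the controls, limma left the direction of the fibrillar genes against N undecided. A gene was called where its Benjamini-Hochberg adjusted p was below 0.01 and its log2 fold change beyond 1. In EY against N the log2 fold change of Col3a1 was 0.45 (95% interval -1.25 to 2.16, adjusted p 0.698), and that of Col1a1 was 0.32 (-1.46 to 2.11, adjusted p 0.798). For Col1a2 it was 0.33 (adjusted p 0.771). The Y mice leaned the other way, with Col3a1 at -1.62 against N (-3.67 to 0.44, adjusted p 0.300), Col1a1 at -1.55 (-3.71 to 0.60, adjusted p 0.347) and Col1a2 at -1.69 (adjusted p 0.244). All 3 Y mice had less Col1a2 than N mice 1, 2 and 3 and lay level with N mice 4 and 5. In E against N the genes were at -0.43, -0.41 and -0.44, each with intervals across 0. EY exceeded Y by 2.07 for Col3a1 (adjusted p 0.192), 1.88 for Col1a1 (0.262) and 2.02 for Col1a2 (0.176), a direction that all EY mice shared for the type I genes. As a family, 8 of 9 tested fibrillar members were below 0 in Y against N, with a median of -1.22 where the median of all genes was 0.13, and 8 of 9 were above 0 in EY against Y, with a median of 1.42 against 0.18 for all genes.

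The choice of controls turned or deepened the folds of these genes. With N mice 1, 2 and 3 alone as controls, EY against N turned to -0.62 for Col3a1, -0.89 for Col1a1 and -0.77 for Col1a2, and Y against N deepened to -2.69 (adjusted p 0.0933), -2.77 (0.0865) and -2.79 (0.0599). E against N deepened as well, to -1.50 for Col3a1 (adjusted p 0.575), -1.63 for Col1a1 (0.532) and -1.54 for Col1a2 (0.510). N mice 4 and 5 had the least Col1a1 and Col1a2 of their group, so whether EY mice had more or less fibrillar collagen RNA than controls depended on counting them. None of these folds was called with either set of controls.

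Because the YAP transgene sits at the Col1a1 locus, the balance of Col1a1 to Col1a2 was compared between mice with and without it. The mean log2 ratio was 0.93 (SD 0.24) in the 10 carriers, N mouse 5 among them, and 0.85 (SD 0.37) in the other 9 mice. The difference of 0.0767 had a p of 0.596 by a two-sided exact permutation test, so no shift in the balance of the type I chains was seen with the allele.

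Type VI collagen forms beaded filaments around fibroblasts, muscle fibers and vessels, and its main chains varied among the N mice as the fibrillar ones did. Col6a1, for its first chain, stood at 11.1, 6.07, 2.61, 1.08 and 0.798 TPM in N mice 1 to 5, 3.28, 2.54, 2.24, 0.577 and 3.97 in E, 1.16, 1.32 and 0.489 in Y, and 1.11, 3.51 and 10.6 at the lowest, median and highest in EY. Col6a2, its partner on the same filament, stood at 7.48, 3.32, 1.19, 1.04 and 0.537 TPM in N, 1.77, 1.88, 0.947, 0.288 and 2.81 in E, 0.906, 0.570 and 0.187 in Y, and 0.691, 1.79 and 5.48 in EY. N mouse 1 was again the highest and 5 of 6 EY mice were above all Y mice, with all groups overlapping N. In EY against N the log2 fold change of Col6a1 was 0.39 (adjusted p 0.689) and that of Col6a2 0.21 (0.838), and with N mice 1, 2 and 3 alone they turned to -0.60 and -0.56. In Y against N Col6a1 was at -1.50 (adjusted p 0.250) and Col6a2 at -1.71 (0.173), and in E against N at -0.36 and -0.50. EY exceeded Y by 1.89 for Col6a1 (adjusted p 0.156) and 1.92 for Col6a2 (0.143), neither of which was called. The 4 tested genes of the type had a median of -1.44 in Y against N and 0.17 in EY against N.

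Type XII collagen coats fibrils and spaces them under mechanical load. Its gene was the only collagen called higher in Y or EY against N, while Col8a1 also rose in both without a call. This gene, Col12a1, stood at 0.694, 0.186, 0.192, 0.111 and 0.0972 TPM in N mice 1 to 5, 0.251, 0.416, 0.319, 0.123 and 0.225 in E mice 1 to 5, 0.806, 1.34 and 1.37 in Y mice 1 to 3, and 0.947, 1.85 and 2.40 at the lowest, median and highest in EY. All 3 Y mice and all 6 EY mice were above every N and every E mouse, with N mouse 1 nearest. The summed basal keratinocyte markers parted the mice in the same way (15010 to 31606 TPM in Y and EY, 7421 to 14170 in N and E). Their part in the Col12a1 result was not tested. In EY against N the log2 fold change of Col12a1 was 2.54 (SE 0.36, adjusted p 1.8e-05), and in Y against N it was 2.01 (SE 0.43, adjusted p 0.00395). E against N gave 0.20 (adjusted p 0.881), and EY exceeded Y by 0.52 (adjusted p 0.480), so adding E6 and E7 to YAP gave no call. The call in EY held in every fit that left out a mouse, whereas the call in Y was lost without N mouse 4 (adjusted p 0.0112), N mouse 5 (0.0107), Y mouse 2 (0.0207) or Y mouse 3 (0.0272). It was also lost with N mice 1, 2 and 3 alone (1.62, adjusted p 0.0346), with only the N and Y mice in the model (adjusted p 0.0384), and with a pseudocount of 1 TPM, which pulled the fold of this low gene to 0.80. A related fibril-associated gene, Col16a1, whose chain lies at the surface of fibrils and in the basement membrane zone, stood at 3.78, 4.12, 2.64, 1.17 and 1.68 TPM in N, 3.83, 2.01, 2.95, 2.39 and 1.30 in E, 1.25, 1.17 and 1.68 in Y, and 0.886, 1.35 and 1.62 in EY. The EY mice overlapped with N mouse 4 and lay below N mice 1, 2, 3 and 5, and the log2 fold change of -0.89 in EY against N was not called (adjusted p 0.0309). With N mice 1, 2 and 3 alone it was -1.39 and was called (adjusted p 0.00177), as it was without N mouse 4 (-1.14, adjusted p 0.00578). With all mice it was called under median-of-ratios (-1.24, adjusted p 0.00237), quantile normalization (-1.20, 0.00333) and voom (-1.08, 0.00846). Y against N gave -0.80 for Col16a1 (adjusted p 0.177).

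Basement membrane type IV collagen showed the opposite course for the chains typical of stratified epithelium. Col4a5 and Col4a6 encode chains that assemble together under the epidermis and around smooth muscle, and their genes lie head to head on the X chromosome. Col4a5 stood at 0.466, 0.953, 0.532, 0.334 and 0.399 TPM in N mice 1 to 5, 0.415, 0.400, 0.515, 0.850 and 0.408 in E, 0.0910, 0.235 and 0.153 in Y, and 0.0360, 0.0608 and 0.129 at the lowest, median and highest in EY. Col4a6 stood at 0.240, 0.366, 0.201, 0.155 and 0.183 TPM in N, 0.275, 0.155, 0.184, 0.370 and 0.299 in E, 0.0164, 0.109 and 0.0550 in Y, and 0, 0.0174 and 0.0244 in EY. For both genes every Y and every EY mouse was below every N and every E mouse, a parting whose share among all genes is not reported. The levels were low but rested on reads: 145 to 348 for Col4a5 in N mice against 13 to 42 in EY mice, and 97 to 193 for Col4a6 against 0 to 11. EY mouse 4, with 0 reads of Col4a6, could have held up to 0.00624 TPM, the level of 3 reads. Cspg4, from a list of pericyte and smooth muscle markers, parted the mice in the same way. It stood at 0.479 to 1.85 TPM in Y and EY mice and 1.99 to 5.48 in N and E mice. Cspg4 was called lower in EY against N (-1.97), while 3 of the 5 tested markers of that list were above 0. Its part in the type IV results was not tested.

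Both chains fell in EY against N, Col4a5 by a log2 fold change of -1.86 (SE 0.26, adjusted p 2.0e-05) and Col4a6 by -1.49 (SE 0.22, adjusted p 3.1e-05). In Y against N they were at -1.26 (adjusted p 0.0114) and -1.05 (0.0123), just short of the limit although no mouse overlapped, and Col4a5 passed it without E mouse 4 (adjusted p 0.00843). Both were called in Y under median-of-ratios (adjusted p 0.00354 and 0.00497) and with a filter above 0 (0.00985 and 0.00623), and Col4a5 alone under quantile normalization (0.00947) and voom (0.00398). With only the N and Y mice in the model they were further from the limit (0.0716 and 0.0924). A pseudocount of 1 TPM, far above these levels, shrank the EY folds to -0.51 and -0.27 and ended both calls. With 0.01 TPM they were -2.79 and -3.34 and with voom -3.13 and -4.56, both called, so the size of each fall, and which chain fell more, depended on the treatment of low values. E against N gave -0.02 for Col4a5 (adjusted p 0.996) and 0.11 for Col4a6 (0.896). EY was below Y by 0.60 for Col4a5 (adjusted p 0.250) and by 0.45 for Col4a6 (0.312), neither called. The falls in EY were thus shared in direction by the Y mice, while the folds of the E mice lay near 0. The widespread type IV chains Col4a1 and Col4a2, found in nearly all basement membranes, were at 0.55 and 0.32 in EY against N and at -1.02 and -0.97 in Y against N, none called.

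The starts of Col4a5 and Col4a6 could be read from RefSeq promoters of the mouse genome (GRCm38.p6), 250 bases before and 50 after the start of transcription. The starts lie 1343 bases apart, Col4a5 on the plus strand at chrX:141475169-141475468 and Col4a6 on the minus strand at chrX:141474027-141474326. The letters GGAATG, which TEAD proteins, the DNA-binding partners of YAP, recognize, were searched on both strands and lie in the Col4a6 promoter (capitals, read on the other strand) but not in that of Col4a5. Among all promoters 14.7% hold these letters, and 5 of the 31 collagens with a promoter in the table do, so the match is a description only.
Col4a5: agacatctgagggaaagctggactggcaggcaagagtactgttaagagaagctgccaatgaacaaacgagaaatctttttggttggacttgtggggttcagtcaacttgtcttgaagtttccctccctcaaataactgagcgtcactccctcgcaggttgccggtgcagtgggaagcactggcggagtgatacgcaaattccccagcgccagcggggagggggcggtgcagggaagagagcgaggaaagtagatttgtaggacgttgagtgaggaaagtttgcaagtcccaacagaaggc
Col4a6: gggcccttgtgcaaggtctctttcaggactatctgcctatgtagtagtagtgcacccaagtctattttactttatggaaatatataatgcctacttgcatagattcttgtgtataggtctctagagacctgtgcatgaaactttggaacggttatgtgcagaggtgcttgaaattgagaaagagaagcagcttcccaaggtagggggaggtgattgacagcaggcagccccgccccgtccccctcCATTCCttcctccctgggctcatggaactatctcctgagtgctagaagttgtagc

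Type VII collagen, the anchoring fibril that keratinocytes lay down beneath the basal layer, was the most abundant basement membrane zone member. Its gene Col7a1 stood at 36.3, 37.5, 19.7, 17.3 and 17.1 TPM in N mice 1 to 5, 39.1, 28.3, 29.9, 35.1 and 33.4 in E mice 1 to 5, 21.0, 13.5 and 14.6 in Y mice 1 to 3, and 6.90, 12.98 and 18.97 at the lowest, median and highest in EY. All Y and all EY mice were below every E mouse, and 5 of 6 EY mice and 2 of 3 Y mice were also below every N mouse. Col7a1 fell in EY against E by a log2 fold change of -1.43 (SE 0.25, adjusted p 0.000254). Against N the EY fold was -0.97 (SE 0.25, adjusted p 0.00486), which met the limit on p and missed the limit on the fold, and with N mice 1, 2 and 3 alone it was -1.29 and called (adjusted p 0.00164). Leaving out N mouse 3 (-1.04), N mouse 4 (-1.09), N mouse 5 (-1.09), EY mouse 3 (-1.02) or EY mouse 6 (-1.10) also brought the Col7a1 call. With all mice Col7a1 was called lower under median-of-ratios (-1.34, adjusted p 0.000165), quantile normalization (-1.38, 0.000154) and voom (-1.14, 0.000327). Y against N gave -0.57 for Col7a1 (adjusted p 0.231) and E against N 0.46 (0.474). Col17a1, the hemidesmosome collagen left out of the 40, fell in EY against E as well (-1.01, adjusted p 0.000199) and was at -0.73 in EY against N (adjusted p 0.00255).

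Type VIII and type XVIII collagens, which line vessels and basement membranes, were not called against N, and Col8a1 stood higher in every YAP mouse. Col8a1, for a short-chain collagen of mesh-like sheets, stood at 1.19, 1.35, 1.02, 0.871 and 0.833 TPM in N mice 1 to 5, 0.777, 0.953, 0.844, 1.16 and 0.774 in E, 2.40, 1.93 and 2.10 in Y, and 1.54, 1.86 and 2.17 at the lowest, median and highest in EY. All Y and all EY mice were above every N and every E mouse, again without the share of all genes that part so. The summed basal keratinocyte markers parted the mice in the same way, at 15010 to 31606 TPM in Y and EY mice and 7421 to 14170 in N and E mice. Without Krt14 the other 4 markers summed to 4368 to 7533 TPM and 2112 to 4080, although 2 of the 5, the regulator Trp63 (-0.20) and the integrin chain Itgb4 (-0.10), were below 0 in Y against N and 0 were called there. Their part in the Col8a1 result was not tested. The Col8a1 log2 fold change was 0.97 in Y against N (SE 0.20, adjusted p 0.00282), 0.78 in EY against N (SE 0.17, adjusted p 0.000961) and 0.97 in EY against E (adjusted p 0.000162), each within the limit on p and short of the limit on the fold. With a pseudocount of 0.01 TPM it was called in Y against N (1.04, adjusted p 0.00272). In EY against N it missed both limits under median-of-ratios (0.43, adjusted p 0.0253), quantile normalization (0.50, 0.0281) and N mice 1, 2 and 3 alone (0.61, 0.0175). In Y against N it missed both with N mice 1, 2 and 3 alone (0.80, adjusted p 0.0241) and with only the groups compared (0.97, 0.0365). Without 1 mouse, Col8a1 in Y was called without N mouse 1 (1.02), N mouse 2 (1.06) or Y mouse 2 (1.05), and missed both limits without Y mouse 1 (0.89, adjusted p 0.0176) or Y mouse 3 (0.99, 0.0152). Col8a1 was at -0.20 in E against N (adjusted p 0.687).

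Col18a1, the type XVIII gene and source of the fragment endostatin, stood at 1.97, 1.81, 0.990, 0.899 and 1.01 TPM in N, 2.23, 1.47, 1.20, 0.994 and 1.58 in E, 2.49, 1.26 and 1.39 in Y, and 1.32, 2.11 and 2.84 in EY. In EY, 4 of 6 mice were above every N mouse for Col18a1, and its fold of 0.68 was not called (SE 0.27, adjusted p 0.0547). In Y 1 of 3 mice was above every N mouse, and the Col18a1 fold was 0.34 (adjusted p 0.544).

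**Figure D2:**
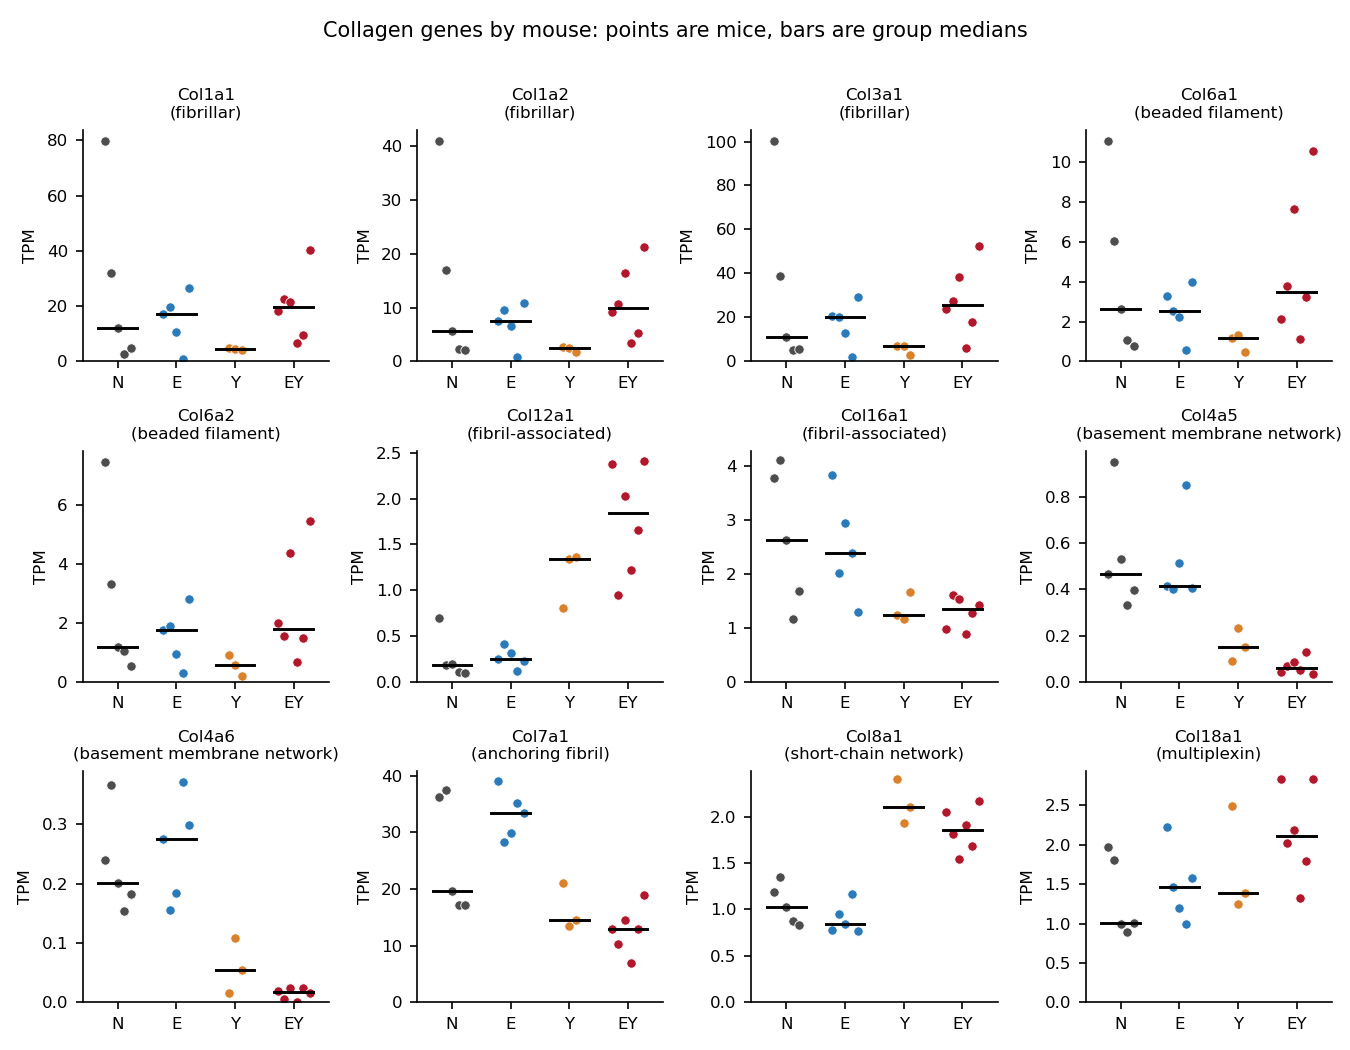
TPM of 12 collagen genes in each mouse (points) of groups N, E, Y and EY with group medians (bars), every panel on its own axis from 0. Col12a1 and Col8a1 are higher, and Col4a5 and Col4a6 lower, in every Y and EY mouse than in any N or E mouse, while the fibrillar genes overlap. The share of all genes that part the mice in this way is not reported.

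Taken over all 27 tested collagens, few were called, and the calls were in groups with active YAP. All genes were also called more often there than in E against N (1.16% higher and 0.044% lower). In EY against N 1 member was higher (Col12a1) and 2 were lower (Col4a5 and Col4a6), where 12.6% of all 22745 tested genes were called higher and 5.71% lower, and 17 members were above 0. In Y against N 1 member was higher (Col12a1) and 0 were lower, where 3.47% of all genes were higher and 1.11% lower, and 19 members were below 0, with a median of -0.96 against 0.13 for all genes. The members had a median of 0.21 in EY against N, where the median of all genes was 0.33. With N mice 1, 2 and 3 alone as controls the member median reversed to -0.60 in EY, with 5 called and 9 at an unadjusted p under 0.05. Of all 22647 genes tested there, 2171 were called higher and 1170 lower in EY, with a median of 0.24. In Y the member median deepened to -1.42, with 0 called and 20 at an unadjusted p under 0.05 against 6 with all N mice. There 523 of all genes were called higher and 134 lower, with a median of 0.05. Counts of members at an unadjusted p, here and below, were not compared with all genes and are a description only. With all N mice the upward shift of all genes in EY depended on scaling: median-of-ratios scaling moved it to 0.01 and the calls of all genes from 2858 higher and 1299 lower to 1542 higher and 1971 lower, and limma-voom gave 2303 higher and 1723 lower. The collagens called in EY kept their directions under each, whereas Col1a1, Col1a2 and Col6a2 flipped to -0.05, -0.04 and -0.14 under median-of-ratios. Voom called 6 members in EY against N, 1 higher and 5 lower, and 2 in Y against N, Col12a1 higher and Col4a5 lower.

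For E6 and E7 without YAP no difference in a collagen gene passed the test. In E against N no member was called by limma or voom, and 0 had an unadjusted p under 0.05. Of all genes 1.16% were called higher and 0.044% lower in that comparison, and the member folds ran from -0.53 to 0.71. With N mice 1, 2 and 3 alone as controls the member median in E moved from -0.20 to -0.53, with 0 called and 4 members at an unadjusted p under 0.05. Of all 22647 genes 183 were called higher and 5 lower in that fit. The EY and Y mice, which differ by E6 and E7, also had no called member by limma, where 1.07% of all genes were higher and 0.928% lower. Of the 27 members 10 had an unadjusted p under 0.05 in EY against Y, a count that fell to 2 without Y mouse 3, 4 without Y mouse 2, 3 without EY mouse 3 or 6 and 6 without EY mouse 1 or 2. This count was not compared with all genes and is a description only. With an adjusted p under 0.05 there was 1 member, Col20a1, a fibril-associated gene chosen after its values were seen (-1.37, adjusted p 0.0219), which voom called lower as its only member. At that adjusted limit 1405 of all 22745 genes were higher and 606 lower. In EY against E, 1 member was higher (Col12a1 at 2.34, adjusted p 6.1e-05) and 3 were lower (Col4a5 at -1.84, Col4a6 at -1.61 and Col7a1), where 7.82% of all genes were higher and 4.99% lower. For the interaction, the part of EY beyond the sum of E and Y, 0 members were called by limma or voom and 5 had an unadjusted p under 0.05, where 0.176% of all genes were called in either direction. That 5 became 13 with N mice 1, 2 and 3 alone, 10 without N mouse 4, 9 without EY mouse 4, and as few as 1 without E mouse 3 or E mouse 4, with 0 called each time. The fibrillar members had a median interaction of 1.90, with Col3a1 at 2.49 (adjusted p 0.402), against 0.08 for all genes. The comparisons against N share the N mice.

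**Figure D3:**
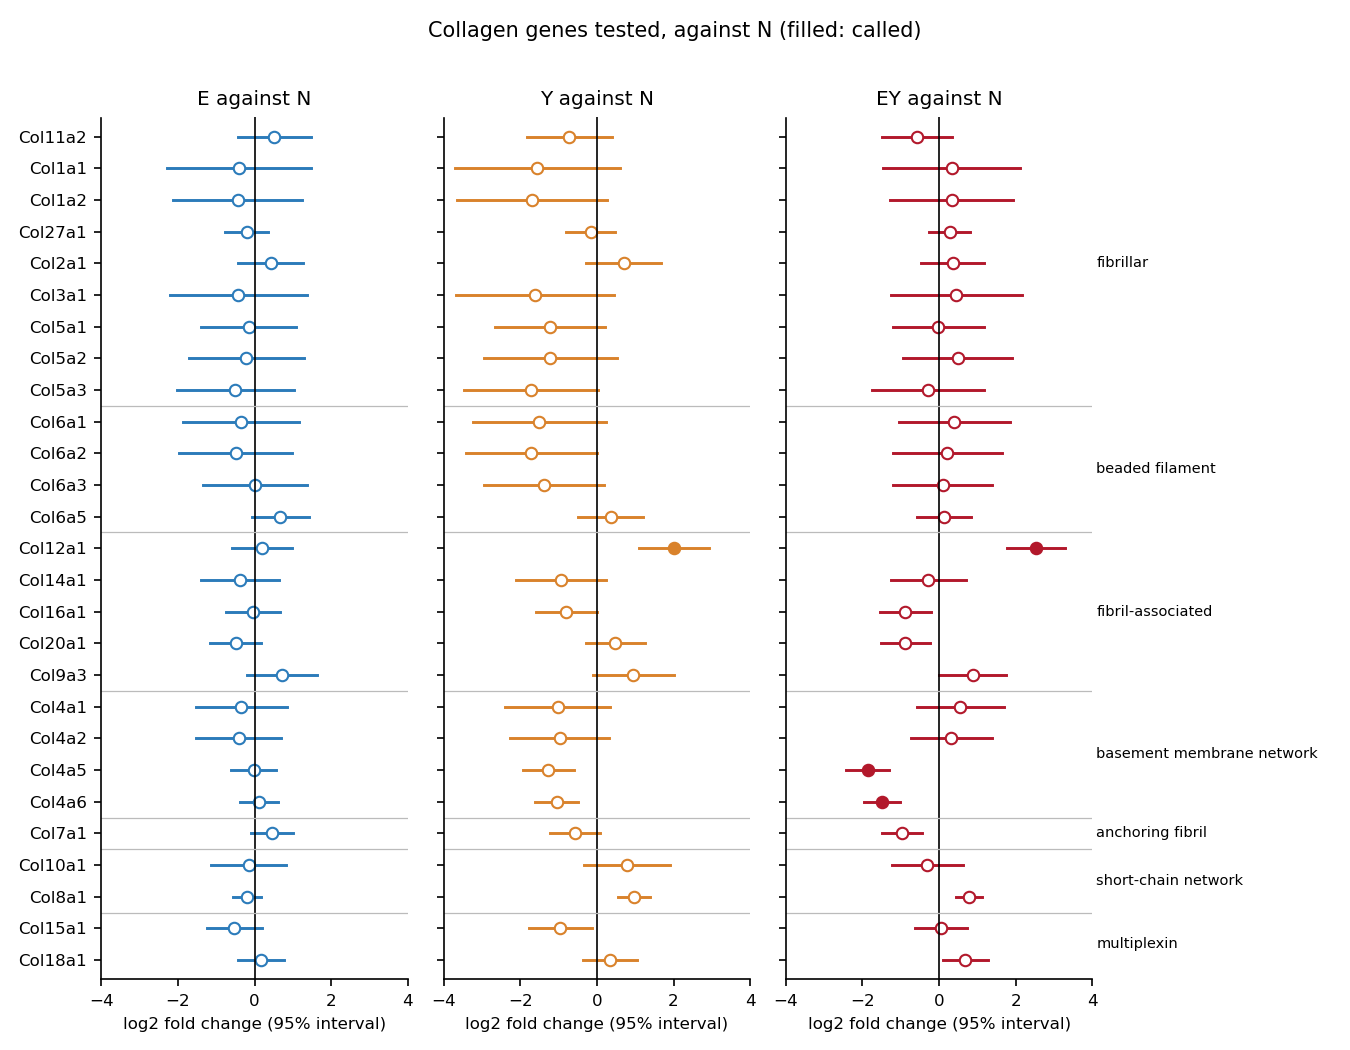
Log2 fold change with 95% interval of the 27 tested collagen genes, ordered by role, in E, Y and EY against N (filled points are called). Most fibrillar and beaded-filament genes (8 of 9 and 3 of 4) lie below 0 with wide intervals in Y, and Col12a1, Col4a5 and Col4a6 stand out in EY.

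The name collagen of the stroma was checked against the cell markers within groups, from mouse to mouse. The level of a marker list was the mean over its tested genes of log2 deviations from the group mean, so each marker counted equally. It was correlated with the deviations of the 27 collagens over the 19 mice, for 4 lists and 108 pairs in all, with permutation p values adjusted over the 108. Fibroblast markers went with 17 members, all positively, endothelial markers with 13, muscle markers with 5 and basal keratinocyte markers with 1. At the lowest r of those 17 (0.637) or above stood 3.52% of all 22745 tested genes, and at the lowest of the 13 (0.666) 2.26%. For muscle markers 3.05% of all genes and 6 members stood at the lowest passing r (0.55) or above, and for basal markers 0.0132% and 1 member (0.924). For Col3a1 and the fibroblast list Pearson r was 0.93 (permutation p 4e-05, adjusted 0.00036) and Spearman rho 0.933 (permutation p 5e-05, adjusted 0.000491), and r was 0.888 without N mouse 1 and E mouse 4. Col12a1 went with the fibroblast list at r of 0.689 (permutation p 0.00427, adjusted 0.0159) and rho of 0.625 (permutation p 0.0108, adjusted 0.0314), and at r of 0.529 without the same mice. Col7a1 had r of 0.637 (permutation p 0.013, adjusted 0.0427) and rho of 0.588 (permutation p 0.0281, adjusted 0.0673), and r of 0.703 without them. For Col4a5, Col4a6 and Col8a1 r with the fibroblast list was -0.00 (adjusted p 0.992), 0.26 (0.480) and -0.03 (0.982), and without those mice 0.317, 0.544 and 0.109, so for Col4a5 and Col4a6 the value depended on them. Col8a1 went with the basal keratinocyte list, with r of 0.924 (permutation p 1e-05, the smallest such a test can give, adjusted 0.00027), rho of 0.909 (permutation p 2e-05, adjusted 0.00036) and r of 0.912 without the same mice.

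The link to fibroblasts depended on how their markers were combined. With the log2 of the summed marker TPM instead, an alternative chosen after seeing the data that gives abundant genes such as Dcn more weight, 2 members went with fibroblasts, Col4a6 and Col5a3, a minor fibrillar chain. Col3a1 then had r of 0.435 (permutation p 0.0473, adjusted 0.125) and rho of 0.523 (permutation p 0.0287, adjusted 0.0950), whereas Col4a6 had r of 0.658 (permutation p 0.00017, adjusted 0.00367) and rho of 0.654 (permutation p 0.00227, adjusted 0.0199). By that sum 13 members went with endothelial markers, 0 with muscle markers, and Col8a1 again with basal keratinocyte markers (r of 0.756, permutation p 0.00049, adjusted 0.00583).

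**Figure D4:**
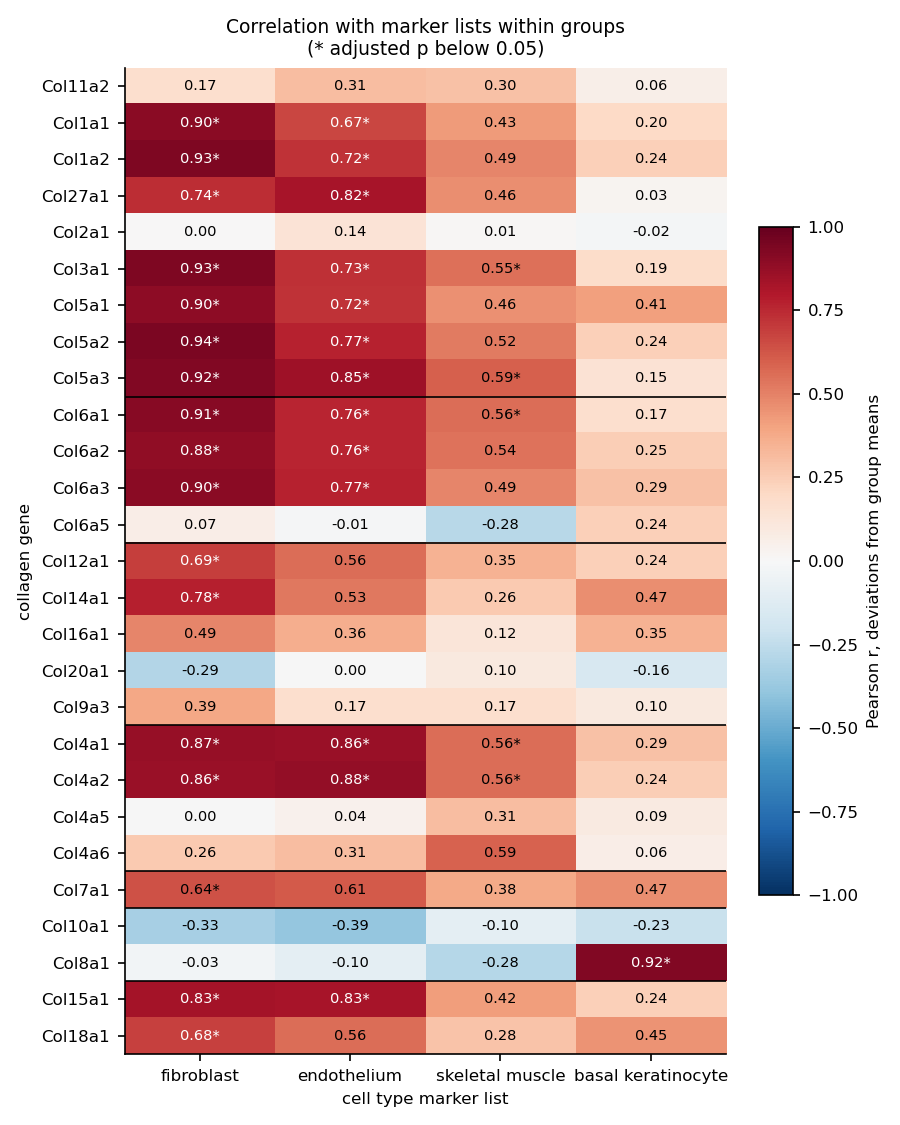
Pearson r between each tested collagen gene and the mean level of the markers of fibroblasts, endothelium, skeletal muscle and basal keratinocytes over 19 mice, from deviations of log2 levels from group means (color scale; asterisk, adjusted p below 0.05). Of 27 genes 17, Col3a1, Col1a1 and Col1a2 among them, follow fibroblast markers, and Col8a1 follows basal keratinocyte markers.

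Among fibroblast markers in EY against N, 7 of 8 were above 0 with a median of 0.39, where that of all genes was 0.33, with the matrix gene Fbln1 called higher (1.16, adjusted p 0.000586) and Dcn called lower (-2.36, adjusted p 0.000249). Dcn, whose protein binds type I fibrils, stood at 47.9, 101.0, 51.9, 61.0 and 45.3 TPM in N mice 1 to 5 and at 5.12, 9.74 and 33.6 at the lowest, median and highest in EY. Every EY mouse was below every N mouse for Dcn while Col1a1 and Col3a1 overlapped. In Y against N 7 of 8 fibroblast markers were below 0 with a median of -1.42, near the fibrillar median of -1.22, and limma called 0, with 1 at an unadjusted p under 0.05 and 1, Dcn, called lower by voom. Muscle markers were above 0 in 8 of 8 in EY against N with a median of 1.77 and 0 called by limma or voom, 1 at an unadjusted p under 0.05, and their part in the collagen levels was not tested. Among keratinocyte markers Krt14 was called higher in EY (1.43, adjusted p 0.000402), and Krt13 (-1.75) and the suprabasal keratin Krt4 (-1.61) lower. The third marker of the suprabasal list, Krt6a, went the other way (0.40) and was not called.

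Genes that finish, bind and degrade collagen were looked at beside the chains. Of 27 tested genes for making and cross-linking collagen, 1 was called higher in EY against N and 0 lower, where 12.6% of all genes were higher and 5.71% lower, with a median of 0.35 against 0.33 for all genes. It was Loxl4, a lysyl oxidase that cross-links fibrils, at 0.787, 0.529, 0.611, 0.418 and 0.471 TPM in N mice 1 to 5 and 1.19, 2.87 and 3.20 at the lowest, median and highest in EY. All EY mice were above all N mice, and Loxl4 rose by 1.99 (SE 0.31, adjusted p 4.6e-05). Of 7 genes for collagen breakdown 2, the collagenase genes Mmp13 and Mmp8, rose in EY against N (12.6% of all genes did), and the median was 0.79 against 0.33 for all genes. Mmp13 stood at 0.843, 0.162, 0.0591, 0 and 0.103 TPM in N and 2.30, 5.86 and 8.98 in EY, a log2 fold change of 4.46 (SE 0.59, adjusted p 9.3e-06). Mmp8 stood at 0, 0.351, 0.128, 0.245 and 0.221 TPM in N and 0.472, 4.25 and 7.49 in EY, a log2 fold change of 3.58 (SE 0.67, adjusted p 0.000313). No EY mouse overlapped an N mouse for either collagenase gene.

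Receptors that bind collagen and partners of type IV collagen in the basement membrane were looked at in the same way. Of 8 tested collagen receptors in EY against N, the integrin chain Itgb1 rose (1.39, adjusted p 2.3e-06) and its collagen-binding partner Itga2 fell (-1.05, adjusted p 0.00498), with a median of -0.09, where 12.6% of all genes were higher, 5.71% lower and the median was 0.33. Of 13 tested laminin, nidogen and proteoglycan genes of the basement membrane, the laminin chain Lamc3 fell (-1.60, adjusted p 4.4e-05), and the median was 0.15. The Itga2 call was lost without N mouse 1 (adjusted p 0.0114), N mouse 2 (0.0173), EY mouse 2 (0.0123), EY mouse 5 (0.0110) or EY mouse 6 (0.0107). Of the 55 tested genes of these 4 lists limma and voom called 0 in Y against N (12 at an unadjusted p under 0.05), 0 in E against N (2) and 0 in EY against Y (17).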

How the data were processed

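The authors deposited TPM made from reads aligned with STAR 2.7.9 to GRCm39 and counted with HTSeq 0.13.5, and how counts became TPM is not stated. Whole reads were recovered from the TPM, 8269674 to 11007304 per mouse. The 22745 genes that reached 0.1 TPM in 3 mice or more entered one limma 3.58.1 model of the 4 groups (R 4.3.3) on log2(TPM + 0.1), with Benjamini-Hochberg adjustment over all of them. A call required an adjusted p under 0.01 together with a log2 fold change beyond 1 in either direction. Other pseudocounts, filters, scalings, controls and limits, voom on recovered reads and fits without each mouse were tried. The model was also run on simulated data, with no outcome reported here. Correlations used 100000 permutations within groups, two-sided. Figures and counts used Python 3.11.15 with pandas 2.3.3, numpy 2.4.6, scipy 1.17.1 and matplotlib 3.10.9. Genes given in full were each member called in any comparison and the 10 with the highest mean TPM. The members and gene lists were chosen with earlier results of these data known. Not every result of the gene lists is reported here.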

Additional observations from a re-analysis of the deposited data

Results flagged for a closer look

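Within groups N, E and EY, 9 values from 6 mice stood far from the others of their group, among 69 sets of values looked at. A chance rate of about 1 in 20 would hold only for independent, normally distributed values. These sets share the same mice, so the count cannot be compared with that rate. The Y mice were not checked. Col12a1 was at 0.694 TPM in N mouse 1, where the nearest N mouse had 0.192. Col4a5 was at 0.850 TPM in E mouse 4, where the nearest E mouse had 0.515. The summed endothelial markers were at 3.94 TPM in EY mouse 3, with 1.35 the nearest. The summed skeletal muscle markers were at 239.7 TPM in N mouse 2 (nearest 60.8), 132.1 in E mouse 5 (nearest 37.4) and 1285.9 in EY mouse 3 (nearest 215.7). The summed immune markers were at 697 TPM in N mouse 1, with 240.7 the nearest. The log2 ratio of Col1a1 to Col1a2 was 0.221 in N mouse 4 (nearest 0.921) and 0.384 in EY mouse 3 (nearest 0.833). What set these mice apart was not tested.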

How the results depend on the processing

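Col12a1, Col4a5 and Col4a6 kept their calls in EY against N in all 19 fits without 1 mouse, with folds of 2.37 to 2.88, -1.98 to -1.66 and -1.58 to -1.36. For the 12 genes given in full, in E, Y and EY against N, no called fold changed direction. Of the 1038 folds compared there 39 did, all uncalled. Members called in EY against N numbered 3, against 1 with a pseudocount of 1 TPM, 1 with a filter of 1 TPM, 6 with median-of-ratios scaling, 6 with quantile normalization, 5 with N mice 1, 2 and 3, 7 at adjusted p below 0.05 with no limit on the fold, and 6 with voom. The filter of 1 TPM left 15 members and removed Col4a5 and Col4a6. In Y against N 1 was called, against 0 with a pseudocount of 1 TPM, 2 with 0.01 TPM, 3 with a filter above 0, 3 with median-of-ratios, 2 with quantile, 0 with N mice 1, 2 and 3, 0 with only the groups compared, 4 at adjusted p below 0.05, 2 with voom and 0 to 2 without 1 mouse. In EY against Y 0 were called, against 1 at adjusted p below 0.05 and 1 with voom, and in EY against E 4, against 2 with a pseudocount of 1 TPM, 2 with a filter of 1 TPM, 5 each with 0.01 TPM, median-of-ratios and quantile, and 6 at adjusted p below 0.05. The interaction has no fit with only the groups compared.

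Folds in EY against N reversed with N mice 1, 2 and 3 for Col3a1 (-0.62), Col1a1 (-0.89), Col1a2 (-0.77), Col6a1 (-0.60) and Col6a2 (-0.56), with median-of-ratios for Col1a1 (-0.05), Col1a2 (-0.04) and Col6a2 (-0.14), and with quantile for Col1a1 (-0.08), Col1a2 (-0.05) and Col6a2 (-0.09). In E against N they reversed with those N mice for Col18a1 (-0.08), Col12a1 (-0.20) and Col4a6 (-0.06). Without 1 mouse, folds in EY against N ran from -0.23 to 0.96 for Col1a1, -0.10 to 0.94 for Col1a2, -0.03 to 0.88 for Col6a1 and -0.18 to 0.71 for Col6a2. In E against N they ran from -0.29 to 0.16 for Col16a1, -0.97 to 0.38 for Col1a1, -0.87 to 0.21 for Col1a2, -0.86 to 0.24 for Col3a1, -0.19 to 0.18 for Col4a5, -0.78 to 0.13 for Col6a1 and -0.89 to 0.00 for Col6a2. The difference in the Col1a1 to Col1a2 ratio ran from -0.00206 to 0.137 without 1 mouse, reversing without N mouse 4. Muscle markers went with 2 members under median-of-ratios and 2 with a pseudocount of 1 TPM, against 5. With summed marker TPM, chosen after seeing the data, they went with 0, and fibroblast markers with 2 against 17. For these values the cause was not tested.

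Mouse number as a replicate block gave 4 members in EY against N and 0 in Y against N, with Col6a2 at -0.06 in EY and Col7a1 called there (-1.09). Same-numbered mice correlated at -0.0426 to 0.0764 and 6 of 19 mice best with their own number. The Y group had 3 mice, Col4a6 had 0 to 11 reads in EY, sex and age were not in the labels, and protein, matrix and cell numbers were not measured.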
